A study of Rattus norvegicus with 56 samples.

Results

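Complement is a cascade of plasma proteins that tags cells and debris for removal, and in the brain its early components also tag synapses that microglia engulf. In the classical pathway the recognition protein C1q, built from the chains encoded by C1qa, C1qb and C1qc, activates the proteases C1r and C1s, which cleave C4 and C2 to form an enzyme that cleaves C3. Factor B (Cfb) is the counterpart of C2 in the alternative pathway, which amplifies C3 cleavage, and Serping1 encodes the C1 inhibitor, which blocks C1r and C1s. In the brain the C1q chains come mainly from microglia, whereas C1r, C1s, C3 and Serping1 can also be made by astrocytes, fibroblasts and other cells. These 9 genes were chosen by name, and a probe stood for a gene where its RefSeq accession belonged to that gene. All 9 were found among 16481 genes with a symbol, and all 9 passed the filter on low signal, which required a probe to be well above background on at least 3 arrays and left 35694 probes to be tested.

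The data came from primary hippocampal neuron cultures of embryonic day 18 Sprague Dawley rats, in which repetitive transcranial magnetic stimulation (rTMS) had been given by an inverted coil under the dish. Stimulation was at 1 Hz, with evenly spaced single pulses, or by intermittent theta burst stimulation (iTBS), with pulses in short bursts, and sham cultures stood in the incubator with the coil at a distance. RNA was collected 0, 2, 8, 24 or 48 h after stimulation, or from untreated control dishes at 0 h, and hybridised to Agilent one-colour rat arrays. The 55 arrays used fell into 16 groups: untreated control (n = 4), sham at 0 and 2 h (n = 4 each), 1 Hz at 8 and at 48 h (n = 4 each), iTBS at 0, 2 and 48 h (n = 4 each), 1 Hz at 2 h (n = 2, after 1 array with a misplaced grid was left out) and the remaining groups (n = 3 each). All groups shared this kind of culture and its medium (Neurobasal with B27), and no labels tied arrays to separate dissections, so p-values measure the spread between these arrays. The sample numbers in the labels ran in blocks of 18 in which the conditions repeat, plus a block with the prefix D. These blocks are called series A (n = 11), B (n = 12), C (n = 17) and D (n = 15) here, and the labels do not say what they stand for.

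Levels are given as scaled log2, the log2 processed signal set to mean 0 and the same SD on each array, so that 1 unit reads as about a doubling. Levels of different genes are not compared, because each probe has its own brightness. C1qb, C1r, C1s, C2 and Serping1 were well above background on all 55 arrays, C3 on 52, Cfb on 31, C1qa on 25 and C1qc on 18. Serping1 covered the widest span of processed signal, from 40.6 to 9715 with a median of 181. C1qa ran from 3.06 to 476 around a median of 8.73, so its low values lie in the background. C1s was represented by the brighter of a pair of probes, and the other probe followed it across arrays with a correlation of 0.99. The percentage of spots well above background ran from 66.1 to 81.8 over the arrays. Neuronal markers such as Map2, Tubb3 and Snap25 were well above background on all 55 arrays. So were the astrocyte markers, among them Gfap, Aqp4 and Slc1a3, and the oligodendrocyte lineage markers, among them Mbp. Microglial markers ranged from 7 arrays (Csf1r) to 55 (Tyrobp).

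Several members are neighbours in the rat genome. C1qb, C1qc and C1qa lie in a row, as do C1r and C1s, and C2 is followed by Cfb. Promoter windows of 250 bases before the start were taken from RefSeq (build GRCr8) for the 4 members that have one there, and are shown because C1qa, C1qb and C3 varied together over arrays while C1r followed another pattern. The windows lie at chr5:154419934-154420183 for C1qa (minus strand), chr5:154407828-154408077 for C1qb (minus strand), chr4:159098763-159099012 for C1r (plus strand) and chr9:2201340-2201589 for C3 (minus strand). Each is written 5′ to 3′ with capitals for the motifs found.
C1qa promoter window: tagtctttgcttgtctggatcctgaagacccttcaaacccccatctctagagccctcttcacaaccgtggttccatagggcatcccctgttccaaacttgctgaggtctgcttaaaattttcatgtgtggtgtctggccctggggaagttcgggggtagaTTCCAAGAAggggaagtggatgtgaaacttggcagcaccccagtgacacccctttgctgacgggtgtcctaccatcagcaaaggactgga
C1qb promoter window: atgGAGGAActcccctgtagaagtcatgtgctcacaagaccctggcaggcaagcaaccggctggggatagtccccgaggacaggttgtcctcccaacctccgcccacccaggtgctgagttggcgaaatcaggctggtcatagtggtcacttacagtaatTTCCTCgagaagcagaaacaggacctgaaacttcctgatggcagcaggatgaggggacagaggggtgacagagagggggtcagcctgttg
C1r promoter window: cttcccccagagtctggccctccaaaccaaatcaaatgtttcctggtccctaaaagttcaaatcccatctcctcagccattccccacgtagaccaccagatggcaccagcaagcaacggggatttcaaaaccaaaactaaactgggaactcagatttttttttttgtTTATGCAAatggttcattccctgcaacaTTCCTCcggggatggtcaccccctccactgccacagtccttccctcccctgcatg
C3 promoter window: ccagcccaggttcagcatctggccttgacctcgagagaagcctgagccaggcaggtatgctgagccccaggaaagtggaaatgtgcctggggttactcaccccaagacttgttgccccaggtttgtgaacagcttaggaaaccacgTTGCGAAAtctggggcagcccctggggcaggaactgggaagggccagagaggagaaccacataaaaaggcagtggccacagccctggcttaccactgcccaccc
The motifs searched on both strands were GAGGAA, the core bound by the myeloid factor PU.1, TTCNNNGAA (STAT factors), TTNNGCAA (C/EBP factors), GGANTTTCC (NF-kB), GAAANNGAA (interferon-stimulated response element) and TGANTCA (AP-1). The PU.1 core was found in C1qb at -247 and, on the other strand, at -90, and in C1r at -55, and it occurs in 23.3% of 33469 rat windows of the same length. The STAT motif was found in C1qa at -90 (7.67% of all windows). The C/EBP motif was found in C1r at -83 and in C3 at -104 (9.22% of all windows). None of the 4 windows held the NF-kB, interferon or AP-1 letters, which occur in 1.08%, 8.12% and 6.34% of windows. No matches overlapped, and a match describes the letters only.

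The first question was whether stimulation changed complement transcripts relative to sham cultures of the same time. None of the 9 members passed (limma, Benjamini-Hochberg adjusted p under 0.05 over all tested probes) for 1 Hz or iTBS at any of the 5 times, for untreated control, or averaged over times. These comparisons were fitted without series, and no member had an unadjusted p under 0.05 in them. Few of all 35694 probes had one either, from 197 (iTBS at 24 h) to 1405 (iTBS at 0 h) at a single time. In this model differences between series, called for 75.4% of all probes, count as spread between arrays. Series were also uneven over groups, and 1 Hz at 2 h held C and D only. The absence of calls without series therefore sets no limit on a difference. With series in the model none passed either, and 4 of the 99 differences at single times had an unadjusted p under 0.05. These were C2 in iTBS at 2 h, C1s in 1 Hz at 48 h, and C1r and C1qc in iTBS at 48 h. The share of all probes with such a p is not given for that model. Without series the share of all 35694 probes that passed was as low. It was 0% for 1 Hz at 0, 24 and 48 h and for iTBS at 0, 2, 24 and 48 h. It was 0.0056% for 1 Hz at 2 h and for iTBS at 8 h, and 0.0028% for 1 Hz at 8 h and for untreated control. Both averages over times called 0%, the tests of any stimulated group and of iTBS against 1 Hz called 0.0028% each, and the tests of whether an effect differed between times called 0%. Members' differences at single times ran from -1.95 to 1.59, with standard errors from 0.44 to 1.97. The median difference over members was -0.63, -0.13, 0.39, 0.09 and 0.18 for 1 Hz over the times from 0 to 48 h, and -0.15, 0.17, 0.32, 0.17 and -0.15 for iTBS, both against the same sham arrays. The medians over all probes lay between -0.05 and 0.05. With series in the model the members' medians were -0.29, -0.22, 0.26, -0.10 and 0.43 for 1 Hz and -0.15, 0.17, 0.32, 0.17 and 0.07 for iTBS, so that 1 Hz at 24 h and iTBS at 48 h turned sign. The members above 0 were then 0, 2, 8, 2 and 9 of 9 for 1 Hz and 4, 5, 7, 8 and 5 of 9 for iTBS. The medians over all probes again lay between -0.05 and 0.05. Members are not separate observations, because they share the same few arrays and some vary together (correlation 0.87 for C1qa with C1qb after group and series effects were subtracted). At 48 h 3 series had both a sham and a 1 Hz array.

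C2, the protease subunit that joins C4 in the classical C3-cleaving enzyme, had the smallest p. Its level in iTBS cultures at 2 h was -1.48 (series A), -1.77 (B), -1.73 (C) and -0.56 (D), and in sham cultures -0.08 (A), -0.92 (B), -1.31 (C) and -0.09 (D). The iTBS array was the lower in each of the 4 series, although the ranges of the groups overlapped. The difference was -0.78 ± 0.44 (SE; limma adjusted p = 0.9998), and -0.78 ± 0.32 with series in the model (limma adjusted p = 0.807).

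C1qc, the C chain of C1q, was next. At 48 h its level in iTBS cultures was -4.43 (A), -4.10 (B), -4.78 (C) and -4.60 (D), and none of these arrays was well above background. Sham cultures at 48 h had -3.01 (A), -3.71 (C) and -0.85 (D), and 1 Hz cultures had -1.02 (A), -3.63 (B), -4.60 (C) and -0.96 (D). All 4 iTBS arrays lay below the 3 sham arrays, while 1 Hz spanned nearly the whole range. The difference of iTBS from sham was -1.95 ± 1.13 (SE; limma adjusted p = 0.9998), on signals near background, and -1.58 with series in the model (95% interval -3.09 to -0.07, limma adjusted p = 0.914).

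Averages over times were also taken with series in the model, and they do not limit a difference at any 1 time. For C1s the 95% interval of 1 Hz minus sham was -0.28 to 0.15, while the differences at single times included -0.52 at 2 h (-1.06 to 0.01) and 0.53 at 48 h (0.06 to 1.00, limma adjusted p = 0.857). For C1r the interval of iTBS minus sham was -0.14 to 0.38 on average, and the difference at 48 h was 0.63 (0.06 to 1.21, limma adjusted p = 0.914). Both differences at 48 h were wide in series A only, where the sham array was low. Over the 3 series with both arrays, C1s in 1 Hz minus sham ran from 0.02 to 1.19 (median 0.17). C1r in iTBS minus sham ran from 0.08 to 1.525 (median 0.13), and A was the highest for both genes. Cfb, the alternative pathway protease, had the widest shift for iTBS, 0.37 (95% interval -0.03 to 0.77, limma adjusted p = 1.0), and was higher than sham of the same series and time in 12 of 17 pairs. For C1qa the interval of 1 Hz minus sham was far wider, -0.86 to 0.56. Serping1 was higher in 6 of 13 pairs for 1 Hz and 12 of 17 for iTBS.

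**Figure D1:**
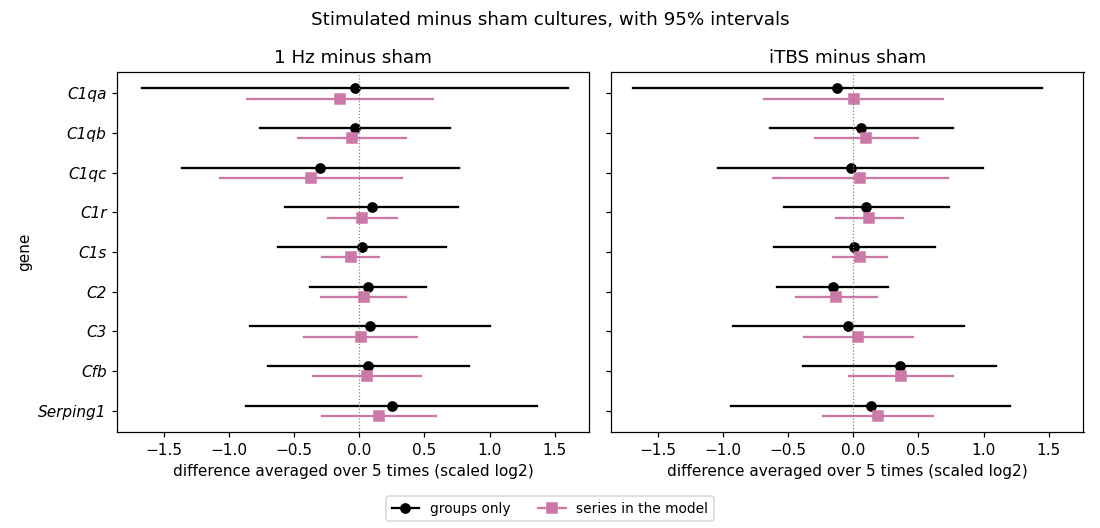
Difference from sham averaged over 5 times (horizontal axis, scaled log2) for each complement gene (vertical axis), for 1 Hz on the left and iTBS on the right, with bars for 95% intervals. Black circles are the model with groups only and pink squares that with series, where the intervals are narrower, and all black intervals include 0.

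The second comparison was time after treatment, over sham, 1 Hz and iTBS cultures together with series in the model. Of the 9 members, 5 changed with time, where 27% of all probes were called. No member passed at 2 h (0% of probes called; 0 members at an unadjusted p under 0.05) or at 8 h (2.37%). At 24 h 4 members were higher than at 0 h, where 14% of probes were called and 8.58% were called higher. At 48 h 5 were higher and none lower, where 27% were called and 13.6% called higher. The members' median difference at 48 h was 1.03, against -0.04 over all probes. Time after treatment cannot be told apart from time in culture.

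Serping1, the C1 inhibitor, rose the most among the members. At 0 h its level was -0.78 (B), -0.20 (A), 0.37 (C) and 2.72 (D) in sham, -0.85 (B), 0.20 (C) and 2.19 (D) in 1 Hz, and -1.52 (B), -0.40 (A), -0.01 (C) and 3.43 (D) in iTBS cultures. At 48 h it was 2.42 (A), 1.28 (C) and 5.34 (D) in sham, 2.92 (A), 3.13 (B), 1.31 (C) and 5.73 (D) in 1 Hz, and 3.21 (A), 2.54 (B), 1.55 (C) and 4.15 (D) in iTBS cultures. Within each series every array at 48 h lay above every array at 0 h, and across series the ranges overlapped because series D was high throughout. The rise was 1.89 ± 0.27 (SE) at 24 h (limma adjusted p = 8.61e-06) and 2.53 ± 0.26 at 48 h (adjusted p = 5.17e-09), which is 5.78-fold (95% interval 4.00 to 8.36). In all 4 series the arrays at 24 and 48 h lay entirely above those at 0, 2 and 8 h, with gaps of 1.53, 1.89, 0.13 and 0.71 in A, B, C and D. Such a separation in all 4 series was found for 0.325% of tested probes (116).

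C1r and C1s, the neighbouring genes of the proteases that the C1 inhibitor blocks, rose by 24 h as well. C1r ran from 0.09 to 2.67 (median 2.11) on the 15 arrays at 0 h, untreated control included, and from 0.89 to 3.44 (median 3.26) on the 11 arrays at 48 h. C1s ran from 0.11 to 2.51 (median 1.23) at 0 h and from 0.61 to 3.70 (median 2.21) at 48 h. The pooled ranges overlapped, but C1r was higher at 48 h in 10 of 10 pairs of the same series and arm, and C1s in 9 of 10. The changes at 48 h were 1.31 ± 0.16 for C1r (limma adjusted p = 1.24e-07, 2.48-fold) and 1.03 ± 0.13 for C1s (adjusted p = 2.11e-07, 2.05-fold), and 0.92 ± 0.17 and 0.76 ± 0.14 at 24 h (adjusted p = 0.000195 and 0.000142).

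C2 and Cfb, which supply the protease of the C3-cleaving enzymes, were higher at 48 h as well. C2 ran from -2.63 to -0.44 (median -1.31) at 0 h and from -1.24 to 1.06 (median -0.26) at 48 h, and was higher in 9 of 10 pairs. Its change was 0.73 ± 0.21 at 24 h (limma adjusted p = 0.0126) and 1.17 ± 0.20 at 48 h (adjusted p = 2.41e-05). Cfb ran from -4.07 to -1.18 (median -2.76) at 0 h and from -3.71 to -0.37 (median -1.10) at 48 h. It was higher in 8 of 10 pairs and passed at 48 h (1.12 ± 0.25, adjusted p = 0.000899) but not at 24 h (0.46 ± 0.26, adjusted p = 0.271). Its probe was well above background on 7 of 15 arrays at 0 h and on 8 of 11 at 48 h. In series C Cfb stayed near background, with means of -3.47 at 0 h and -3.34 at 48 h.

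The C1q chains and C3 did not pass at any time with the arms pooled. For the C1q chains the estimates at 48 h lay above 0 in 1 Hz and below 0 in iTBS cultures, as given below. At 48 h the differences from 0 h were 0.05 (95% interval -0.81 to 0.92) for C1qa, 0.23 (-0.27 to 0.73) for C1qb, -0.27 (-1.12 to 0.58) for C1qc and -0.23 (-0.76 to 0.30) for C3. Of 10 pairs, C1qa was higher at 48 h in 6, C1qb in 7, C1qc in 3 and C3 in 5. C3 is the protein on which all complement pathways converge, and its interval leaves room for a fall of 0.76 or a rise of 0.30.

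**Figure D2:**
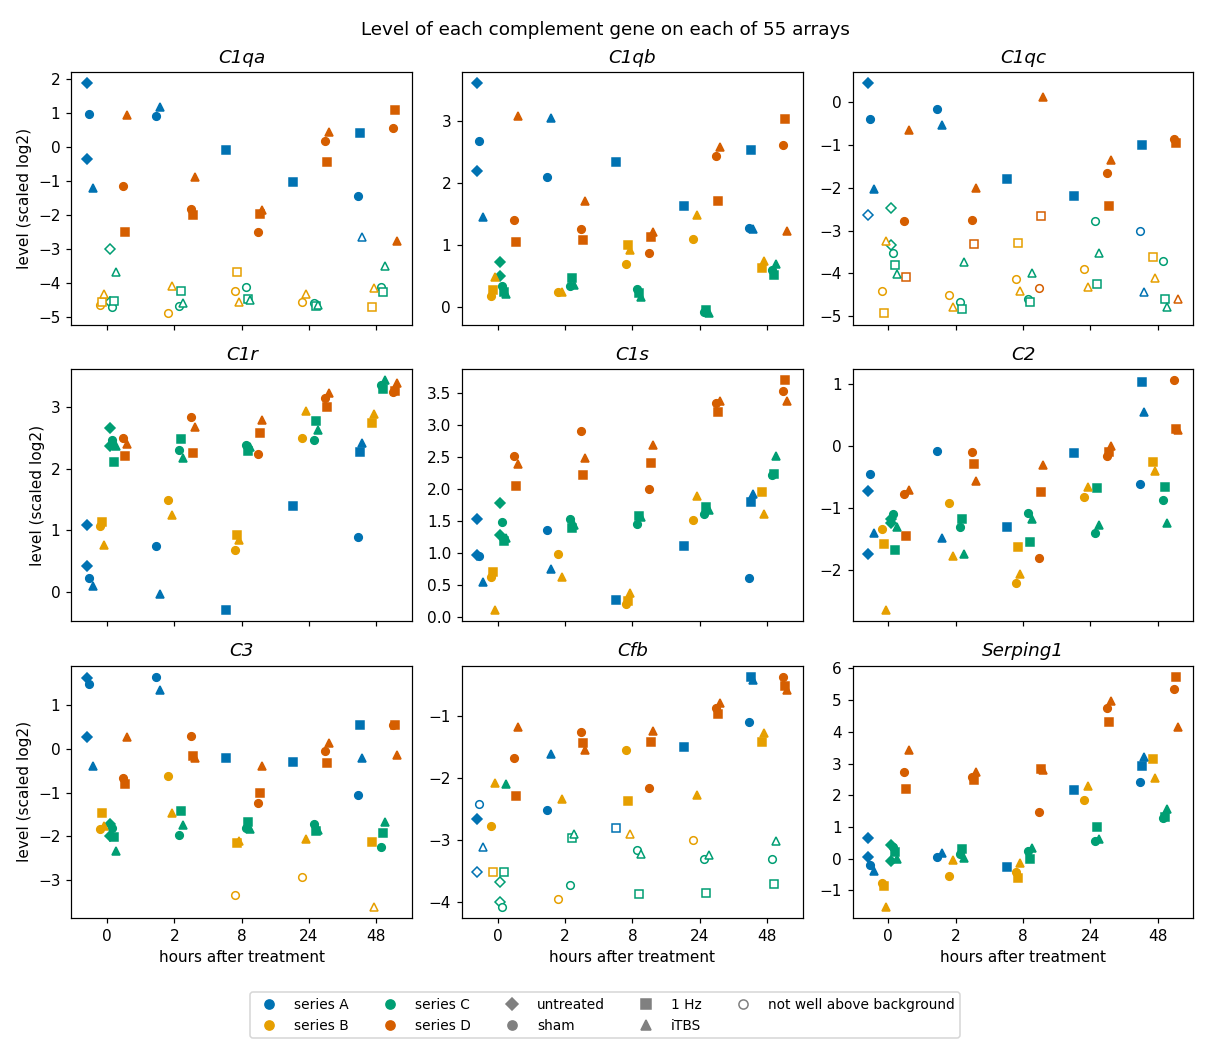
Level of each of the 9 complement genes (vertical axis, scaled log2) against hours after treatment (0, 2, 8, 24 and 48 h) on each of 55 arrays, with colour for culture series and marker shape for sham, 1 Hz, iTBS or untreated control, open markers being signals not well above background. Serping1 lies higher at 24 and 48 h than at the earlier times within each colour, while C1qa and C1qc sit in the background in series B and C at all times.

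Each arm was also taken on its own at 48 h against 0 h, with series in the model. In sham cultures Serping1 passed (2.21 ± 0.47, limma adjusted p = 0.00892) and was the only member to do so, where 1.61% of probes were called, and C1r (0.84, adjusted p = 0.125), C1s (0.50, adjusted p = 0.292), C2 (0.63, adjusted p = 0.403) and Cfb (1.07, adjusted p = 0.229) did not. In 1 Hz cultures Serping1 (2.90), C2 (1.58), Cfb (1.504), C1r (1.47) and C1s (1.31) passed, where 7.63% of probes were called. In iTBS cultures Serping1 (2.48), C1r (1.63), C2 (1.30) and C1s (1.29) passed and Cfb (0.79, adjusted p = 0.209) did not, where 10.4% were called. The C1q chains and C3 passed in no arm. C1qa was at 0.09 in sham, 1.28 ± 0.76 in 1 Hz and -1.21 ± 0.70 in iTBS cultures. C1qc was at -0.12, 1.30 ± 0.75 and -1.99 ± 0.69 (iTBS, limma adjusted p = 0.0548) in the same order. C1qb was at 0.17, 0.86 and -0.33, and C3 at -0.60, 0.255 and -0.35. The difference in change between arms was tested over all times, and no member passed for 1 Hz or iTBS. That test was fitted without series, so it does not match the estimates of each arm given here.

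**Figure D3:**
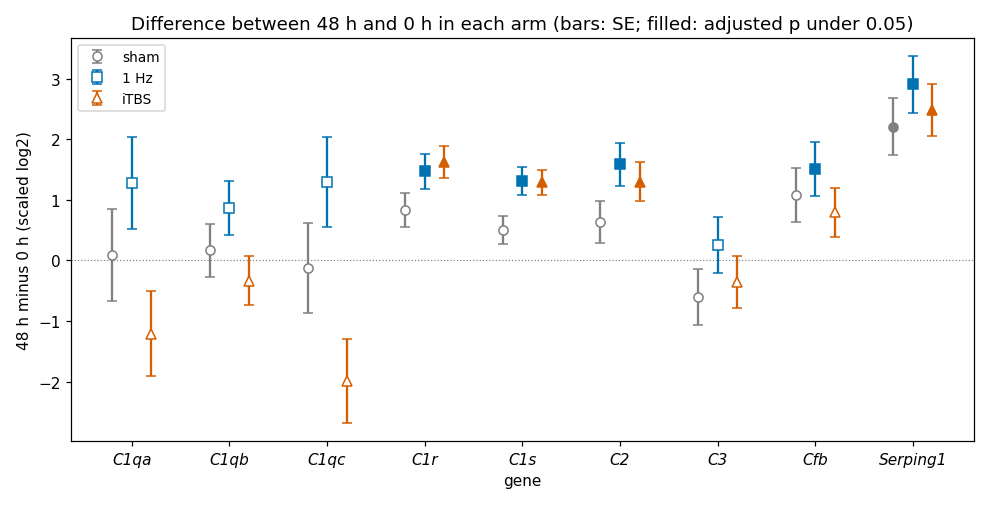
Difference between 48 h and 0 h (vertical axis, scaled log2) for each complement gene in sham, 1 Hz and iTBS cultures, with bars for the standard error and filled markers for an adjusted p under 0.05. Serping1 is filled in all arms, and the markers of C1qa and C1qc lie on both sides of 0.

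At 24 h the call depended on how series and slide entered the model. Without series in the model 0 of 9 members passed at 24 h and 3 at 48 h (C1r, C2 and Serping1), and with the array slide as a block C1r and Serping1 passed at 24 h and 6 members at 48 h. The sixth was C3, which was lower at 48 h in that model (-1.47 ± 0.41, limma adjusted p = 0.0134). Within each series the later times lay mostly on the later slides (in series A 0 of 5 arrays of one slide and 4 of 6 of the other were from 24 or 48 h), and the part of the slide in these results was not tested beyond that block.

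The change with time also differed between series, a test added after the data had been seen. Serping1 (limma adjusted p = 0.00439), C1r (0.0164) and C3 (0.0499) passed, where 39.4% of all probes were called, a larger share than the members' 3 of 9. From 0 to 48 h the mean level of Serping1 went from 0.02 to 2.85 in series A, from -1.05 to 2.83 in B, from 0.18 to 1.38 in C and from 2.78 to 5.07 in D. C1r went from 0.46 to 1.86 in A, from 0.99 to 2.81 in B, from 2.40 to 3.36 in C and from 2.37 to 3.31 in D. For both genes the mean was higher at 48 h in all 4 series, and the step was widest in B. C3 went both ways, from 0.75 to -0.23 in A, from -1.69 to -2.87 in B, from -1.97 to -1.95 in C and from -0.40 to 0.32 in D.

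The third comparison was between culture series. All 9 members differed between series (limma adjusted p from 4.10e-17 for C1s to 1.97e-05 for C2), where 75.4% of all probes were called. Series D was higher than the mean of A, B and C for all 9 members, where 53% of probes were called and 28.9% called higher. Series C differed from the mean of A and B for 7 members, 5 lower and 2 higher, where 40.1% were called and 19.8% called lower. Series A differed from B for 6 members, 5 of them higher in A, where 30.4% were called and 16.7% called higher. With the slide as a block, C3 was the only member that still passed for A against B, and these series shared no slide with each other.

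The C1q chains separated A and D from B and C. C1qa was well above background on 10 of 11 arrays of A and 15 of 15 of D, and on none of the 12 arrays of B or the 17 of C. Its level ran from -2.66 to 1.88 (median -0.08) in A, from -4.90 to -3.70 (median -4.45) in B, from -4.73 to -2.99 (median -4.52) in C and from -2.76 to 1.10 (median -1.16) in D. Because B and C were in the background the difference is a bound, and C1qa was at least 8.80-fold higher in A than in B and at least 4.89-fold higher in D than in B, set against the lowest signal well above background on each array or the probe's own signal if higher. C1qc followed, with 8 of 11 arrays of A and 10 of 15 of D well above background and none of B or C, and was at least 3.09-fold higher in A than in B.

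C1qb, which was above background throughout, gave the same order as a measured difference. Its mean was 2.19 ± 0.75 in A, 0.66 ± 0.41 in B, 0.32 ± 0.25 in C and 1.76 ± 0.77 in D (SD), and A exceeded B by 1.42 ± 0.26 (SE; limma adjusted p = 6.38e-05). C3 had 0.43 ± 0.95 in A, -2.12 ± 0.84 in B, -1.86 ± 0.22 in C and -0.21 ± 0.54 in D, and A exceeded B by 2.48 ± 0.27 (adjusted p = 8.86e-09). Within A and D the C1q chains also spread widely between arrays of the same time. At 48 h C1qa was 0.40 (1 Hz), -1.45 (sham) and -2.66 (iTBS) in A and 1.10, 0.56 and -2.76 in D, so the iTBS array was the lowest in both. At 0 h the iTBS array of D was the highest of its 3 (0.96, against -1.16 in sham and -2.50 in 1 Hz).

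C1r, C1s and Serping1 did not follow that order. C1r had means of 0.83 ± 0.90 in A, 1.60 ± 0.89 in B, 2.59 ± 0.41 in C and 2.79 ± 0.42 in D (SD), so that series C, low for the C1q chains, was high for C1r. C exceeded the mean of A and B by 1.38 ± 0.12 for C1r (SE; limma adjusted p = 7.24e-12) and by 0.68 ± 0.10 for C1s (adjusted p = 5.66e-07). With the slide as a block C1r still passed, and C1s did not (0.35 ± 0.23, adjusted p = 0.258). Serping1 averaged 0.98 ± 1.40 in A, 0.41 ± 1.58 in B, 0.49 ± 0.50 in C and 3.50 ± 1.28 in D, and D exceeded the others by 2.82 ± 0.19 (adjusted p = 8.85e-16, 7.04-fold). Serping1 did not pass for A against B or for C against both. C2 averaged between -1.36 and -0.36 over the series. Cfb was well above background on 15 of 15 arrays of D but on 1 of 17 of C.

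**Figure D4:**
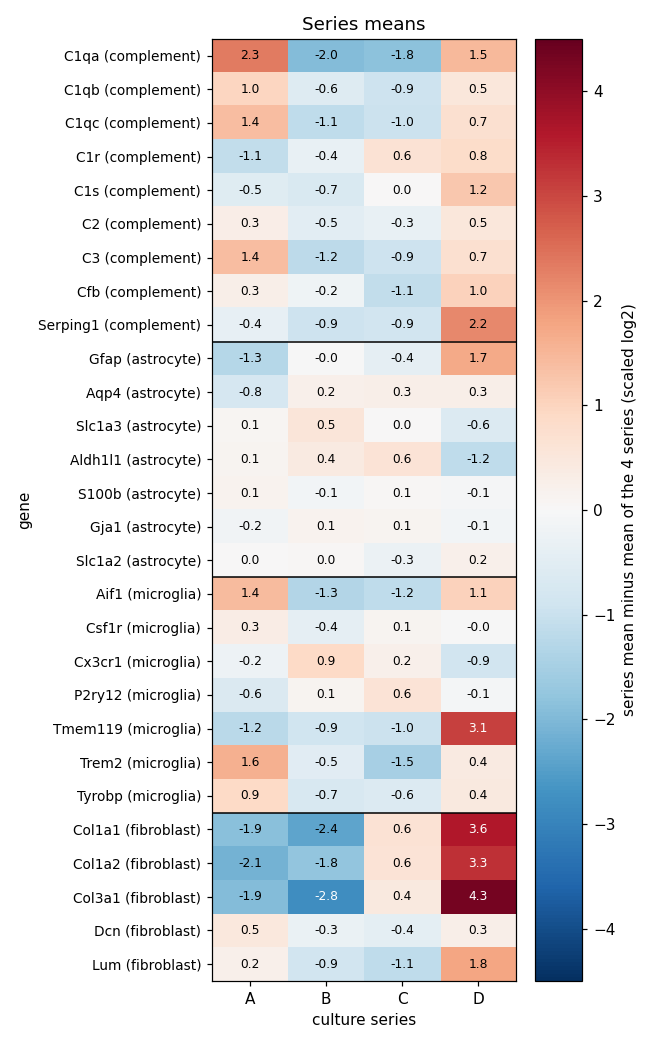
Mean level in each culture series (columns A, B, C and D) minus the mean of the 4 series (colour, scaled log2) for the 9 complement genes and for astrocyte, fibroblast and 7 of the 8 microglial markers. The C1q chains and C3 are high in A and D with Aif1, Trem2 and Tyrobp. C1r, C1s, C2, Cfb and Serping1 are highest in D, as are the collagen genes, while the fibroblast marker Dcn is highest in A.

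Markers of other cell types moved with the series, and their part in these results was not tested. In bulk cultures fewer cells of a type and less RNA per cell cannot be told apart. Of 8 microglial markers 7 differed between series, of 7 astrocyte markers 6, of 6 oligodendrocyte lineage markers 6 and of 5 fibroblast markers 5, where 75.4% of all probes did. Aif1 had mean levels of -0.81 in A, -3.58 in B, -3.40 in C and -1.19 in D, Trem2 had -0.30, -2.43, -3.42 and -1.51, and Tyrobp had 0.78, -0.83, -0.72 and 0.32, so that A and D lay above B and C as for the C1q chains. The probe of Cx3cr1, a defining microglial receptor, went the other way (4.45, 5.59, 4.92 and 3.83), P2ry12 was lowest in A, and Tmem119 was at 0.72 in D and between -3.56 and -3.27 elsewhere. Csf1r was well above background on 7 arrays, and the macrophage markers Cd163 and Mrc1 on none. The mean of the microglial list ran from -0.68 to 0.91 in A, from -0.59 to -0.08 in B, from -0.71 to 0.16 in C and from -0.02 to 1.38 in D. The mean of the 5 fibroblast markers ran from 5.16 to 5.74 in D and from 0.54 to 3.37 in the other series, and Col1a1 exceeded them there by 4.82 ± 0.20 (limma adjusted p = 3.91e-22). Gfap, the intermediate filament of astrocytes, was 2.19 higher in D (adjusted p = 5.48e-15), but the 7 astrocyte markers did not move together there. Of these 3 were higher and 2 lower, with a median of -0.10, and Aldh1l1 fell by 1.51 and Slc1a3 by 0.86 relative to the other series. Of 6 oligodendrocyte lineage markers 5 were lower in D, with a median of -2.56, and Mbp, a myelin protein, had mean levels of 3.93 in A, 6.52 in B, 9.03 in C and 2.57 in D.

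Some glial markers also moved with time. At 48 h 27% of all probes were called against 0 h and 13.6% were called higher. Of 7 astrocyte markers 5 were higher at 48 h, among them Gfap by 1.64 ± 0.22 (limma adjusted p = 5.55e-07) and Aqp4, the astrocytic water channel, by 1.04 ± 0.16. Of 8 microglial markers 1 was higher at 48 h and none lower, with a median of 0.14, near the share of all probes called higher. Lyz2, a lysozyme of myeloid cells and the 1 macrophage marker tested, rose by 1.58 ± 0.22. Of 7 neuronal markers 2 were lower. The part of any of these in the rise of Serping1, C1r, C1s, C2 and Cfb was not tested.

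Of 42 other complement genes, 25 were tested. None passed against sham in any comparison, and those with the smallest p at a single time were C5ar1, C4bpa, Cd93, C4b and C6 for 1 Hz and Vtn, C4bpa, Cfi, Cfi and C8b for iTBS, in order of time. The smallest of these was for C4bpa, a regulator that binds C4b, in iTBS at 2 h (limma adjusted p = 0.9998), whose probe was well above background on 3 of 55 arrays. Cd46 was nearest in untreated control (0.77 ± 0.26, adjusted p = 1.0), Cfp and C4bpa in the averages over times, C4bpa, Cfi, C6 and Cfi in the tests over all times.

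With time 8 of the 25 passed, near the 27% of all probes (Clu, Cd46, Cd55, Csmd1, Cd93, Vtn, C4bpb and Cfp). The surface regulators Cd55, which dissociates the C3-cleaving enzymes, and Cd46, a cofactor for cleaving C3b, were the 2 that passed at 8 h, by 0.80 ± 0.19 (limma adjusted p = 0.0115) and 0.70 ± 0.11 (adjusted p = 0.000257), before any member. At 24 h Cd46, Cd55, Cd93 and Cr1l were higher and Vtn, which blocks the membrane attack complex, was lower by 0.65. At 48 h Clu (clusterin, another inhibitor of that complex) rose by 0.89 ± 0.15 (adjusted p = 3.09e-05), Cd93 by 0.69, Cd55 by 0.61 and Cd46 by 0.49, and Csmd1 fell by 0.90 ± 0.24 (adjusted p = 0.00526). At 2 h the smallest p was that of Cd46, which did not pass (0.27 ± 0.12, adjusted p = 0.997). Of the 25, 2 passed at 8 h, 5 at 24 h and 5 at 48 h, where 2.37%, 14% and 27% of all probes were called. The median over the 25 at 48 h was 0.01, against 1.03 for the members.

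Between series 23 of the 25 passed, all but C6 and C8b, where 75.4% of all probes did. For series D 13 passed (53% of all probes), for C against A and B 12 (40.1%) and for A against B 10 (30.4%). In series D 11 were higher, among them Colec12, a scavenger receptor of the collectin family (2.04 ± 0.23, limma adjusted p = 1.19e-09), Cfd, the protease that cleaves factor B (1.39 ± 0.16, well above background on 15 of 55 arrays), and C3ar1, the C3a receptor (0.98 ± 0.21), with Clu, C4b, Cd55, C4a, Itgb2, Cd46 and Vtn at 0.81 or less, and Itgam (-0.89) and Susd4 (-0.45) were lower. In series C Masp2 (well above background on 4 arrays) and Clu were higher than in A and B, and C4a, C4b, C4bpa, C4bpb, C5ar1, Cd93, Cr1l, Csmd1, Susd4 and Vtn lower. In A against B C4a, C4b, Cd46, Cfd, Cfp, Cr1l, Masp1 and Vtn were higher, and Clu and Itgam lower. C4a and C4b are near-identical copies, so their probes may share signal.

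Of 13 interferon- and cytokine-responsive genes tested, none passed against sham. At 48 h Isg15 (1.47 ± 0.21, limma adjusted p = 2.12e-06), Irf7 (1.28), Tnf (0.96), B2m (0.73) and Irf1 (0.71) were among those higher and Irf8, a myeloid regulator, was lower (-0.67). At 24 h 5 were higher and 1 lower, where 14% of all probes were called and 8.58% called higher. At 48 h 6 were higher and 1 lower, where 27% were called and 13.6% called higher. Tnf and Irf8 were well above background on 8 of 55 arrays each, so their differences rest mostly on background signal.

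Genes whose level varied most like each member were ranked by Pearson's correlation over the 55 arrays after group and series effects were subtracted. Candidates had to be well above background on enough arrays, a limit given with the processing below. C1qa (25 of 55 arrays) and C1qc (18 of 55) fell short of it and were not candidates. These arrays share labelling and depth, so the correlations are descriptions. Among the candidates C1qa was closest to Tyrobp (0.90), C1qb (0.87) and Trem2 (0.84). C1qb was closest to Tyrobp (0.85), Rac2 (0.84) and Trem2 (0.82), and C1qc to Tyrobp (0.72), Rac2 (0.64) and Trem2 (0.63). C1qa itself gave 0.87 with C1qb, above Tyrobp. With C1qc it gave 0.72, level with Tyrobp and above Rac2. C3 was closest to Trem2 (0.75), Fcer1g (0.73) and Asgr1 (0.73). C1r was closest to Ppp1r36 (0.89), Gpx7 (0.88) and Trim5 (0.88), and C1s to Anxa4 (0.73), Ctsc (0.73) and Retreg1 (0.70). C2 was closest to Tep1 (0.76), Asl (0.74) and Stn1 (0.74), Cfb to Adora2a (0.69), Kcnab3 (0.63) and RT1-M3-1 (0.59), and Serping1 to Mavs (0.80), Trim45 (0.79) and H19 (0.79).

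Among the members themselves the same measure gave 0.87 for C1qa with C1qb and 0.65 for C1r with C1s. C1qa with C1r gave -0.08, and C1qa with C3 gave 0.57. C1s with Serping1 gave 0.52 and C2 with Serping1 0.58. The neighbours C2 and Cfb gave 0.41.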

How the data were processed

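Total RNA of each sample was hybridised to 1 one-colour Agilent array. The deposited scanner files give a processed signal per spot, an intensity on a linear scale that the authors extracted with Feature Extraction 12.0.3.1 (protocol GE1_1200_Jun14, build rn4:RGSCv3.4 per the file headers) and did not scale between arrays. In the deposited series matrix the authors gave each probe a score, the z-score of its log10 signal on that array, which served as an alternative. The array of 1 Hz at 2 h replicate 2, whose grid the software marked as misplaced, was not used.

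Log2 intensities were averaged over spots of a probe without outlier spots, converted to z-scores within each array, and rescaled by the arrays' median SD (4.06). Of the probes, 9484 below the filter were not tested, which left 35694 (17732 with a symbol), and the brightest probe stood for each gene. Symbols came from a RefSeq table (GRCr8) through unversioned accessions. The 75th percentile of the signal ran from 1896 to 18416 over arrays, and the number of arrays limits the precision.

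Linear models were fitted with limma 3.58.1 in R 4.3.3, with no covariate for stimulation (39 residual and 2.82 prior degrees of freedom) and with series for time and series effects (36 residual). All tests were two-sided, with a threshold of 0.05 on the p adjusted by Benjamini-Hochberg over all tested probes. All 9 members were named. Of the other complement genes those that passed and the one with the smallest p in each comparison were named, except for genes not reported here. For each member the 3 most correlated genes were named, among those well above background on at least 50% of the arrays. Members and lists were chosen with earlier results of these data known. Values of a few listed genes other than members are not reported here. Scripts were tested on simulated data. Alternatives covered scaling, filter, series, slide, replicate number, the grid array and each array left out in turn.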

Additional observations from a re-analysis of the deposited data

Results flagged for a closer look

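In the iTBS group at 2 h, Serping1 in replicate 4, the array of series D, was at 2.72, while the other 3 arrays of the group lay between -0.03 and 0.17, a gap large for the range of 4 values. This was 1 of 72 pairs of a member and a group of 4 arrays (8 groups) examined, and chance marks about 5 in 100. Serping1 was high on the arrays of series D at all times.

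The change with time differed between the 4 series for C1r (limma adjusted p = 0.0164), C3 (adjusted p = 0.0499) and Serping1 (adjusted p = 0.00439), by an interaction of time and series fitted after the data had been seen. For Cfb the adjusted p was 0.0501.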

How the results depend on the processing

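No difference that passed changed direction under an alternative. Some that did not pass turned sign, and the following are examples only. With the slide as a block C1qa and C1qb went to -0.89 and -0.58 at 48 h and, with C1qc, to -0.61, -0.42 and -0.22 at 24 h. With series in the model C1qa and C3 in 1 Hz at 24 h went to -0.39 and -0.10. In that model C1s and C1r in 1 Hz at 2 h went to -0.52 and -0.22, and C1r in 1 Hz at 0 h to -0.14. At 48 h C1qa in 1 Hz went to 0.43 and Serping1 in iTBS to 0.13. Of the differences that passed, recomputed for single members, 380 kept their side of the threshold and 31 lost it. Of the counts of members recomputed, 373 stayed within 1.5 times the reported one, 1 was larger and 8 were smaller. With all 56 arrays, the misplaced grid included, 1 member passed for 1 Hz at 2 h (17333 probes called), 3 changed with time and 2 passed at 24 h. Without series in the model 2 members changed with time, 0 passed at 24 h (1368 probes against 4988) and 3 at 48 h (3867 against 9646). With the slide as a block 2 passed at 24 h (1715 probes) and 1 for series A against B (157 probes against 10844). Without series D, an alternative added after seeing the data, C1r and Serping1 passed at 24 h (2 members, 1044 probes). The causes were not tested. Leaving out each array in turn changed the count only for A against B, which ran from 6 to 7. With the replicate number as a block, 0 members passed against sham, 5 with time, 4 at 24 h, 5 at 48 h, and 6 of 9 for series D, where C1qb, C1qc and C2 were lost (9676 probes against 18932). The numbers share no source in the labels, and of 57 pairs of arrays with the same number and time the correlation of deviations exceeded 0.1 in 35 (lowest -0.46), so they were not taken as pairs. Signals near background limit C1qa, C1qc and Cfb.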
